A study of Mus musculus with 6 samples.

Results

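The genes described here are 9 mouse transcription regulators of the helix-loop-helix network: the E protein genes Tcf3 (also Tcfe2a), Tcf4 and Tcf12, the partner genes Lyl1, Tal1 and Lmo2, and the inhibitor genes Id1, Id2 and Id3. They were taken by gene symbol from the platform annotation of an Illumina bead array, which assigned them 17 of its 45281 probes. The array covered 19057 named genes, and 9395 of these had a probe bright enough to be tested, among them 7 of the 9. The genes were picked on values already known from the comparison below, those of Lyl1, Tcf4 and Id2, so the differences that follow are given as a description and not as evidence.

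Total RNA came from an IL-17-producing hybridoma named S2, with 3 arrays, and from an IL-17-non-producing hybridoma named DE3, with 3 arrays. A hybridoma is the fusion of a lymphocyte and a tumour cell. Both were grown in RPMI with fetal calf serum. The labels give no parent cells, no tumour partner and no stimulation. Each group carries 1 line name, so any difference is between 2 lines, and nothing states that the arrays of a group came from separate cultures. Calls therefore measure only the spread between these arrays, which may be technical. The 6 arrays shared 1 chip, where the groups held separate neighbouring positions, so an effect of position and of group cannot be told apart.

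E proteins bind the E-box, a short DNA motif, as dimers that form through the helix-loop-helix domain, and they drive early lymphocyte development and recombination of antigen receptor genes. Lyl1 and Tal1 are related helix-loop-helix factors that need an E protein as partner, and Lmo2 is a LIM-domain bridging protein that joins such dimers to GATA factors. When these 3 genes are switched on in thymocytes they can drive T cell leukaemia. Id proteins have the dimerization domain but no DNA-binding region, so they hold E proteins off DNA.

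Mean deposited signal was 399 to 482 per producing array and 505 to 559 per non-producing array, a ratio of 0.843 between the group means. The groups did not overlap (two-sided exact permutation p = 0.1, the smallest that 3 against 3 arrays allow). A share of 36.9% to 37.4% of probes was detected on producing arrays and 38.0% to 39.4% on non-producing arrays. With 3 arrays a group, precision is limited throughout. Of 9 T cell markers with a probe, 9 were detected on at least 1 array and 7 on all 6. Their summed normalized signal was 41407 to 43162 on producing arrays and 50263 to 53323 on non-producing arrays, and Thy1 made up 55.6% of that gap. Of 8 T cell markers tested, 2 were higher, 4 lower and 2, Cd3e and Lat, not past the threshold. That is 75% called, against 36.7% of all tested genes. On the log2 scale Cd247 was higher by 0.54 and Zap70 by 0.30. Cd3d (-0.996), Cd28 (-0.75), Cd3g (-0.67) and Thy1 (-0.47) were lower. The other probes of Cd247, at -0.25 and 0.06, were not past the threshold, while those of Zap70, at 0.35 and 0.31, were. Il17a and Il17f, the cytokine genes behind the group names, were detected on 0 of 6 arrays, so these transcripts do not check the labels. The part of array brightness and of the T cell markers in the differences below was not tested.

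Promoter sequence is shown for the 3 genes past the test's threshold whose window was at hand, Lyl1, Tcf3 and Id2, because the E-box is the site that this network itself reads. Each run holds the 250 bases before the gene's start in RefSeq on GRCm38.p6, written 5′ to 3′ on the gene's strand, and capitals mark each match to the E-box letters CANNTG.
Lyl1, chr8:84701207-84701456, plus strand: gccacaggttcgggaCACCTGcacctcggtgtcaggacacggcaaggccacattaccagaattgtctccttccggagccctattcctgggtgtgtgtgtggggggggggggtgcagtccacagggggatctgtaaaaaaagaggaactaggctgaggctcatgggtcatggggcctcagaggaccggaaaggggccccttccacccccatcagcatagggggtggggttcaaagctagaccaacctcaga
Tcf3, chr10:80433636-80433885, minus strand: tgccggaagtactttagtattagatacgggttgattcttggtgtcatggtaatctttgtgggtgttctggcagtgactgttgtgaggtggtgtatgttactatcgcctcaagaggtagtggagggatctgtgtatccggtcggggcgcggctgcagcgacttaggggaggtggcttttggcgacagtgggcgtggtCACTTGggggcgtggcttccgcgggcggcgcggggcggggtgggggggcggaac
Id2, chr12:25096093-25096342, minus strand: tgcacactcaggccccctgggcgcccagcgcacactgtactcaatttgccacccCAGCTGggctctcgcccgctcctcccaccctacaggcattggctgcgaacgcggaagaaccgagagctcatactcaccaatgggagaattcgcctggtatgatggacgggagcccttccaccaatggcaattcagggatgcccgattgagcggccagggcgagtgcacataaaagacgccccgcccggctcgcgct
Each window held 1 match, which began 235 bases before the start in Lyl1 (CACCTG), 54 bases before it in Tcf3 (CACTTG) and 196 bases before it in Id2 (CAGCTG).

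Windows were read for 6 of the 9 genes, 9 windows in all, since Tal1 has 2 and Tcf12 has 3. Tcf4 was left out by its chromosome, which the shares over all windows did not exclude. For Lmo2 and Id1 no window was at hand. The letters CANNTG, which read the same on both strands, stood in 5 of these 9 windows and in 66.2% of all 32851 windows of that length. The palindrome CAGCTG, a form of that motif, stood in the window of Id2 and in 1 of the Tcf12 windows, 2 of the 9, and in 13.0% of all windows. The Lyl1 form, searched on both strands and likewise a case of the motif, stood in its window alone among the 9 and in 17.2% of all. A GATA factor motif, AGATAA on either strand, stood in 1 of the Tal1 windows and in 9.99% of all. These matches describe letters only.

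Among the E proteins, Tcf4 was read in the non-producing hybridoma alone, Tcf3 was higher in the producing hybridoma and Tcf12 differed little. Probe ILMN_2636463 of Tcf4 had deposited signals of 73.9, 69.3 and 68.0 on the producing arrays, against 347.6, 314.5 and 290.1 on the non-producing arrays. All 3 non-producing arrays were far above all 3 producing arrays, none of which was detected (detection p-values 0.0886 to 0.191). On the normalized log2 scale it averaged 4.84 ± 0.12 on producing and 7.93 ± 0.06 on non-producing arrays (SD, n = 3 each). Because the producing arrays were not well above background, the fold is a bound, with S2 at least 7.19-fold lower than DE3. For such a bound each undetected array is raised to the level of its dimmest detected probe, 4.97 to 5.10 in log2 signal over the 6 arrays.

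The bound for Tcf4 rests on the background correction. The log2 difference, producing minus non-producing, was -3.08 ± 0.09 (SE), but -2.00 without background correction or from the authors' processed values and -1.90 with another correction that used no negative controls. It stayed past the threshold in each of these.

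The other probes of Tcf4 did not read it in either line. Probe ILMN_1225984 had signals of 70.0, 68.0 and 58.6 on producing arrays and 74.1, 71.3 and 73.5 on non-producing arrays. Probe ILMN_1214146 lay between 47.0 and 53.7 on producing arrays and between 48.2 and 56.5 on non-producing arrays. Neither was detected on any of the 6 arrays. The difference in Tcf4 thus comes from 1 probe of 3, and the probes are annotated to different transcripts of the gene. Which transcripts each probe reaches was not tested.

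Tcf3 rose on both of its probes. Probe ILMN_2596278 read 6.25, 6.07 and 6.40 on the producing arrays, against 5.68, 5.49 and 5.81 on the non-producing arrays, in normalized log2 signal. The producing arrays were all above the non-producing ones, a log2 difference of 0.58 ± 0.12 (SE). Probe ILMN_2596277 read 6.15, 6.15 and 5.98 on producing arrays, against 5.60, 5.57 and 5.82 on non-producing arrays, a difference of 0.43 ± 0.10 (SE), and again the groups did not overlap. In the deposited signals, before normalization, the gap was smaller. ILMN_2596278 averaged 112 ± 2.49 on producing and 100.4 ± 6.04 on non-producing arrays (SD, n = 3 each), and the arrays of ILMN_2596277 overlapped. Without background correction the first probe differed by 0.33 and with no negative controls by 0.31, both past the threshold. With the arrays scaled to a common median the second probe was at 0.23 and no longer past it.

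Tcf12, the E protein most used alongside Tcf3 in thymocytes, did not pass. Its brightest probe read 8.37, 8.51 and 8.37 on producing arrays and 8.61, 8.49 and 8.45 on non-producing arrays, and the groups overlapped. The difference was -0.10 with a 95% interval of -0.29 to 0.09, and a second probe was at -0.11 (-0.39 to 0.17). These intervals allow a decrease or a small increase. In deposited signal the brightest probe had 342.7, 396.8 and 298.8 on producing arrays and 522.7, 435.7 and 419.4 on non-producing arrays, without overlap. The ratio of its group means was 0.754, beside 0.843 for the mean of whole arrays. Scaling the arrays to a common median, which moved the median of all genes by -0.23, put Tcf12 at -0.40 and past the threshold, or -0.16 relative to that shift. The remaining probes were dim, with ILMN_1258340 detected on 1 of 3 producing and 0 of 3 non-producing arrays and ILMN_2976577 on none of the 6.

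**Figure D1:**
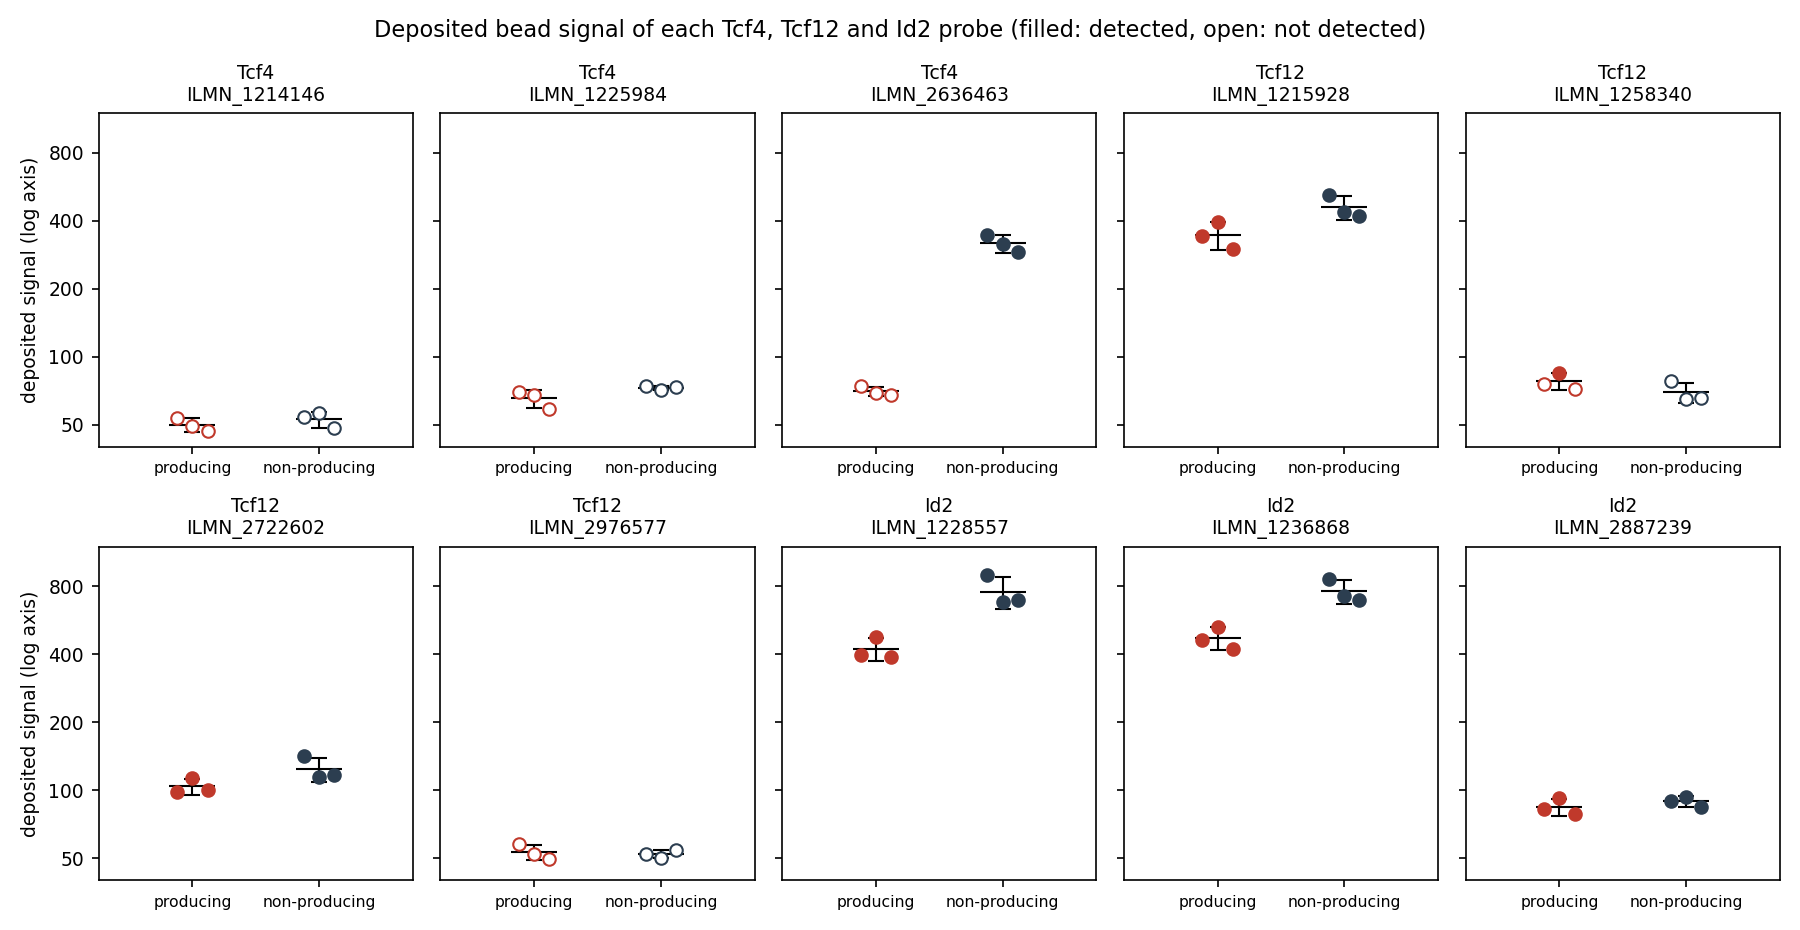
Deposited bead signal on a log axis for each of the 10 probes of Tcf4, Tcf12 and Id2, with 3 producing arrays on the left of each panel and 3 non-producing arrays on the right. Filled points are detected and open points are not, and bars show the mean and SD. Only probe ILMN_2636463 of Tcf4 is detected on all arrays of 1 line and none of the other, and the dimmest probe of each gene overlaps between the lines.

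Of the partners, Lyl1 rose, Lmo2 fell and Tal1 was not detected. The Lyl1 probe had deposited signals of 127.6, 135.4 and 118.9 on producing arrays, against 74.5, 72.0 and 73.0 on non-producing arrays. All 3 producing arrays were above all 3 non-producing ones, although the producing arrays were the dimmer ones as a whole. On the non-producing arrays its detection p-values were 0.0899, 0.148 and 0.12, so it was not well above background there. Normalized log2 signal averaged 6.53 ± 0.03 on producing and 4.82 ± 0.04 on non-producing arrays (SD, n = 3 each), with S2 at least 2.87-fold higher than DE3. The log2 difference was 1.71 ± 0.07 (SE). It was 0.94 without background correction or from the processed values and 0.88 with no negative controls, past the threshold each time, so the stated bound holds only for the background correction used here.

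Lmo2 was detected on all 6 arrays. It read 6.59, 6.77 and 6.46 in normalized log2 signal on the producing arrays, against 7.48, 7.16 and 7.16 on the non-producing arrays. Non-producing array 1 was the highest, and the groups did not overlap. The log2 difference was -0.66 ± 0.12 (SE), or 1.58-fold lower, and -0.55 without non-producing array 1. Deposited signal averaged 132 ± 18.5 on producing and 220 ± 37.7 on non-producing arrays (SD, n = 3 each). Lmo2 was therefore lower in the line in which Lyl1 was higher.

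Tal1, the close relative of Lyl1, gave signals of 46.4 to 52.4 on producing arrays and 47.2 to 57.2 on non-producing arrays. Its detection p-values ran from 0.597 to 0.994, so no level or fold is given for either line.

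**Figure D2:**
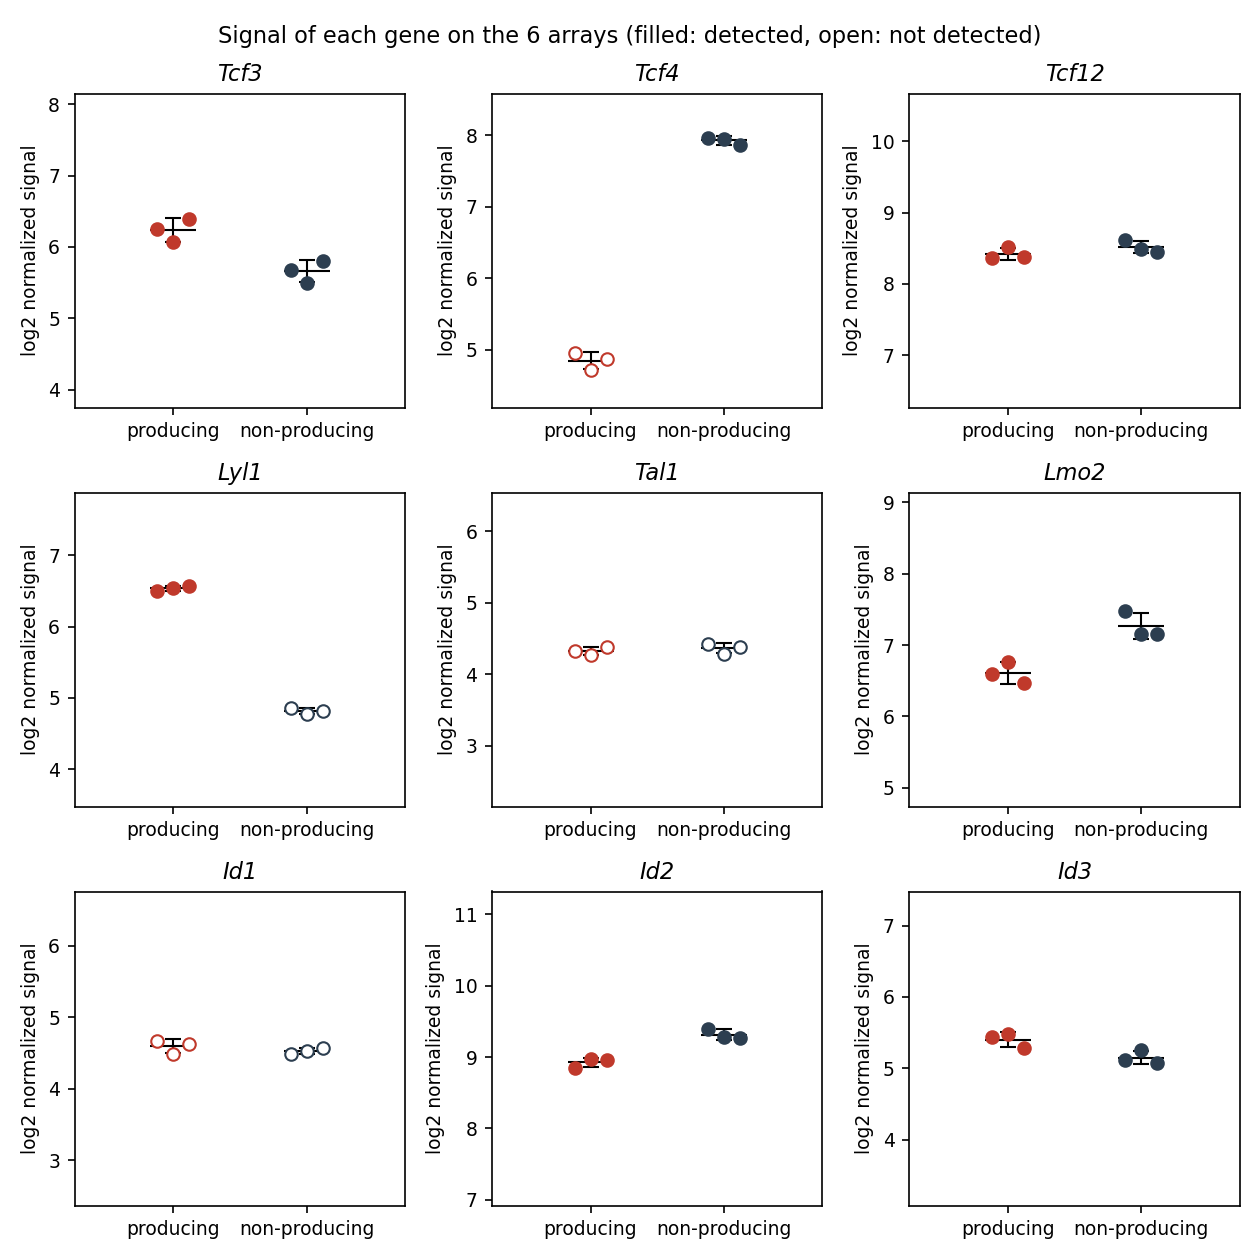
Normalized log2 signal of each gene on the 6 arrays, from its brightest tested probe or, for Tal1 and Id1, its single probe. Producing arrays are on the left and non-producing arrays on the right, bars give the mean and SD, and every panel spans the same log2 range. Open points, not detected, fill both sides for Tal1 and Id1, the producing side for Tcf4 and the non-producing side for Lyl1.

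Among the inhibitors, Id2 fell on 2 of its 3 probes, Id3 did not pass and Id1 was not detected. Id2, which restrains E proteins in innate and effector lymphocytes, read 8.85, 8.97 and 8.95 on its brightest probe on producing arrays, against 9.40, 9.28 and 9.26 on non-producing arrays. The groups did not overlap, and the log2 difference was -0.39 ± 0.08 (SE), or 1.31-fold lower. Probe ILMN_1228557 read 8.61, 8.80 and 8.81 on producing arrays, against 9.45, 9.20 and 9.26 on non-producing arrays, a difference of -0.56 ± 0.10 (SE). Deposited signal of the brightest probe averaged 471 ± 54.4 on producing and 760 ± 91.3 on non-producing arrays (SD, n = 3 each). With the arrays scaled to a common median its difference was -0.68, or -0.45 relative to the shift of all genes.

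The third Id2 probe went against these. ILMN_2887239, annotated to the same transcript as ILMN_1228557, had much dimmer signals of 82.4, 92.8 and 78.6 on producing arrays and 90.1, 93.6 and 84.0 on non-producing arrays. The arrays overlapped, and the difference of 0.07 had an interval of -0.17 to 0.32, with its sign turned to -0.064 under scaling to a common median. That interval does not reach the value of either other probe.

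Id3, which is induced by antigen receptor signals, read 5.43, 5.49 and 5.29 on producing arrays and 5.11, 5.26 and 5.08 on non-producing arrays, close to the lowest detected signal. The producing arrays were all the higher ones, by a log2 difference of 0.25 with an interval of 0.05 to 0.46 that is not adjusted for multiple testing. In deposited signal the groups overlapped, with 84.0 ± 6.45 on producing and 82.9 ± 2.78 on non-producing arrays (SD, n = 3 each). The gene lies on chromosome 4, whose 580 tested genes had a median difference of 0.28. With each chromosome's median removed Id3 was at -0.022, while it passed the threshold without producing array 3 (0.31). Without background correction it was at 0.12.

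Id1 gave signals of 61.2 to 66.9 on producing arrays and 60.2 to 64.9 on non-producing arrays, with detection p-values from 0.227 to 0.453, and has no fold here.

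Of the 7 genes tested, 5 passed an adjusted p of 0.05 in the limma fit over all probes, where 36.7% of all tested genes did. Tcf3 and Lyl1 were higher, where 18.1% of all genes were, and Tcf4, Lmo2 and Id2 were lower, where 18.6% were. For 6 of the 7 the 3 producing and 3 non-producing arrays did not overlap, as held for 51.3% of all tested genes. Of the 11 tested probes, 3 were higher, 4 lower and 4 not past the threshold. The median absolute log2 difference was 0.58 over the 7 genes and 0.21 over all tested genes, and the median signed difference was -0.10 over the 7 and 0.00 over all. Since the genes were chosen with this comparison in view, nothing is read from these shares. Levels of different genes are not set against each other, because each probe has its own brightness. In bulk RNA, fewer cells with a transcript and less of it per cell cannot be told apart.

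**Figure D3:**
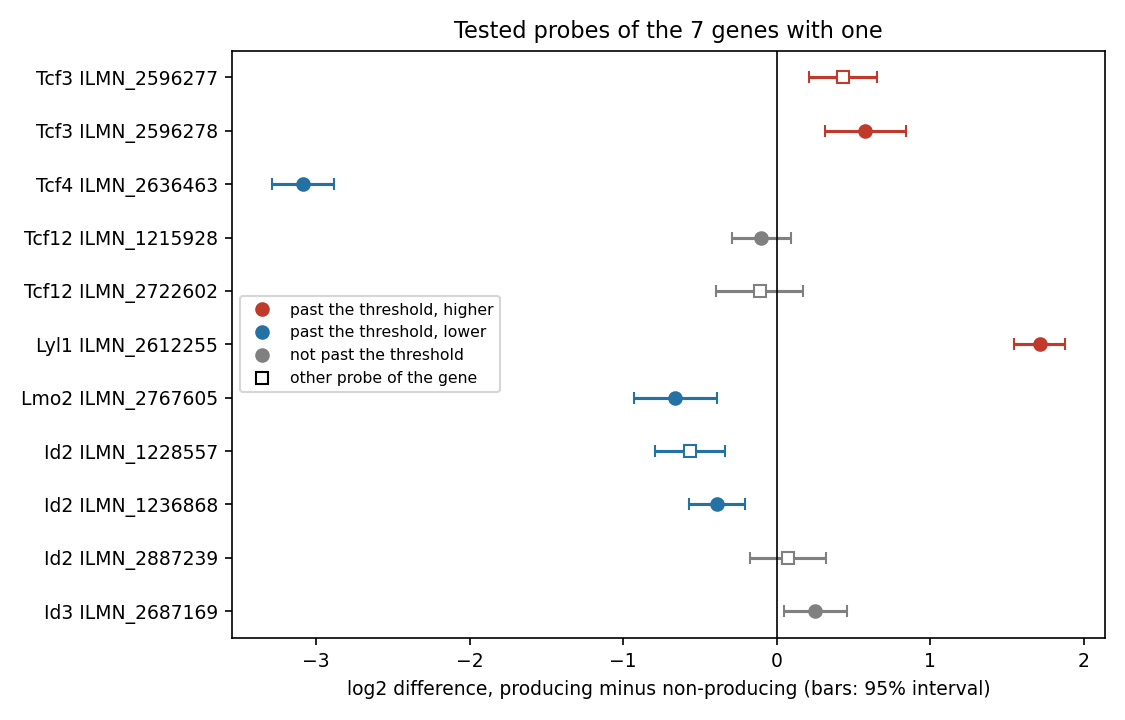
Log2 difference, producing minus non-producing, of the 11 tested probes with 95% intervals from the limma fit. Round points are the probe read for each gene and squares its other tested probes. Tcf4 at -3.08 and Lyl1 at 1.71 stand far from the rest, which lie between -0.66 and 0.58, and the 3 Id2 probes are split.

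Other genes of the network were taken from lists, and their calls come from the same fit. Of 30 further helix-loop-helix genes with a probe, 6 could be tested. Of these, 3 were higher (50% called, against 36.7% of all tested genes), 0 were lower (limma, also 0 at an unadjusted p under 0.05) and 3 were not past the threshold. The median log2 difference was 0.30, against 0.00 over all tested genes. Hes1, a repressor induced by Notch, rose by 2.45 ± 0.14 (SE; adjusted p = 1.21e-05 by limma), or by 1.80 without background correction or from the processed values and 1.73 with no negative controls. Bhlha15, a factor of secretory cells, rose by 0.73 and by 0.74 on its other probe. Bhlhe40, a repressor active in effector T cells, was at 0.37. The call depended on array 2 and array 3 of both groups (adjusted p 0.0695 to 0.101 by limma without each), and was lost, at 0.083, with arrays scaled to a common median and, at 0.37, with no filter on dim probes (adjusted p = 0.0662 by limma).

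Transcripts for the proteins that assemble with Lyl1, Tal1 and Lmo2 were mostly detected on enough arrays to be tested, and they went both ways. Of 21 partner and cofactor genes with a probe, 15 were tested, 3 were higher, 3 lower and 9 not past the threshold (median 0.02), so that 40% were called, near the 36.7% of all tested genes. Ldb1, the dimerizing scaffold that binds Lmo2, rose by 0.33, Runx1 by 0.49 and Ssbp4, of a family that binds Ldb1, by 0.44. With arrays scaled to a common median all 3 lost the call, at 0.10, 0.22 and 0.15. With chromosome medians removed Ldb1 (0.02) and Runx1 (0.25) lost it, and Ldb1 did so without non-producing array 3 (0.29, limma, adjusted p = 0.0505). The acetyltransferase gene Ep300 fell by 0.71, and its dimmer probe was at -0.32 and not past the threshold. Cbfa2t2, a corepressor, fell by 0.33, a call that depended on every array except producing array 1 (adjusted p 0.0527 to 0.0726 by limma without each), and its dimmer probe was at -0.25 and not past the threshold. The deacetylase gene Hdac2 fell by 0.25, a call that depended on every array except non-producing array 3 (adjusted p 0.0810 to 0.133 by limma without each).

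Gata3, the GATA factor of T cells, averaged 10.60 on producing and 10.53 on non-producing arrays, a log2 difference of 0.07 that did not pass. Gata1 and Gata2, which serve Tal1 complexes in blood stem and erythroid cells, were not tested, as they were not detected on 3 arrays. Lmo4, Cbfa2t3, Ssbp2, Ssbp3, Sin3a, Crebbp, Kdm1a and Sp1 were the others not past the threshold, between -0.21 and 0.31. Ssbp2, at -0.21, passed at -0.19 without background correction and at -0.50 with arrays scaled to a common median, and Kdm1a, at -0.067, passed at -0.34 with chromosome medians removed. The dimmer probe of Sp1 fell by 0.43 and that of Ssbp3 rose by 0.36, against 0.02 and 0.11 on their brightest probes.

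Of 20 genes listed as E protein targets with a probe, 12 were tested, 3 were higher, 2 lower and 7 not past the threshold (median 0.05), so that 41.7% were called, near the 36.7% of all tested genes. Besides Hes1, Notch1, the receptor that opens T cell commitment, rose by 0.54 ± 0.10 (SE; adjusted p = 0.00371 by limma), but was at 0.28 and not past the threshold with arrays scaled to a common median. Socs3, an inhibitor of cytokine signalling, fell by 1.35 and Foxo1, a factor of lymphocyte homing and quiescence, by 0.80. The size for Socs3 depended on the background correction. It was -0.87 without that step or from the processed values and -0.83 with no negative controls, past the threshold each time. Foxo1 was at -0.71 without background correction, also past it. Vpreb1, a surrogate light chain gene named after its values were seen, was the other increase, at 0.51. Ptcra, the pre-T cell receptor chain and a direct E protein target, was detected on 3 of 3 producing and 2 of 3 non-producing arrays and differed by 0.23, not past the threshold. Rag1 and Rag2, the recombinase genes, were not detected on enough arrays to be tested. Ptcra, Rag1 and Rag2 were likewise named with their values known.

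Of 10 genes listed as targets of Tal1, Lyl1 or Lmo2 with a probe, 3 were tested. Of these, 0 were higher (limma, also 0 at an unadjusted p under 0.05), 2 were lower and 1 did not pass. That is 66.7% called, against 36.7% of all tested genes, of which 18.1% were higher and 18.6% lower. With 3 genes tested, no direction is read for the list. Kit, the stem cell factor receptor, averaged 5.14 on producing arrays, where it was detected on 1 of 3, and 8.13 on non-producing arrays. The producing level lay near the lowest detected signal, so the size of the difference rests on the background correction. It was -2.99 in log2, but -2.02 without background correction or from the processed values and -1.93 with no negative controls, past the threshold each time. Only 1 of the 3 Kit probes was tested. Hhex, a homeobox gene that Lmo2 activates in thymocytes, was detected on 0 producing and all 3 non-producing arrays, and was at least 1.32-fold lower in S2. That bound holds only for the background correction used here, since the log2 difference of -0.54 was -0.26 without it and -0.24 with no negative controls, still past the threshold. Both were lower where Lmo2 was lower and Lyl1 higher, but between 2 lines any called gene goes with Lmo2 or with Lyl1. A link between these genes was not tested.

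Of 10 genes with a probe that act upstream of Id genes, 6 were tested, 1 was higher, 4 lower and 1 not past the threshold (median -0.58), where 18.1% of all tested genes were higher and 18.6% lower. The type II BMP receptor gene Bmpr2 fell by 1.76 ± 0.10 (SE; adjusted p = 1.08e-05 by limma), read from the only 1 of its 4 probes that was tested. Bmpr2 was at -1.34 without background correction and at -1.29 with no negative controls, past the threshold in both. Bmpr1a, a type I receptor, was detected on 0 producing and all 3 non-producing arrays, and was at least 1.43-fold lower in S2. That bound holds only for the background correction used here, since the log2 difference of -1.20 was -0.76 without it, still past the threshold. It comes from 1 tested probe of 2. Egr1, the early response factor that induces Id3, fell by 0.71 and Acvr1 by 0.45. Without background correction Egr1 was at -0.40 and Acvr1 at -0.32, both past the threshold. Smad5, named after its values were seen, was at 0.42 on its brightest probe and at -0.51 on its other, both past the threshold in opposite directions.

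**Figure D4:**
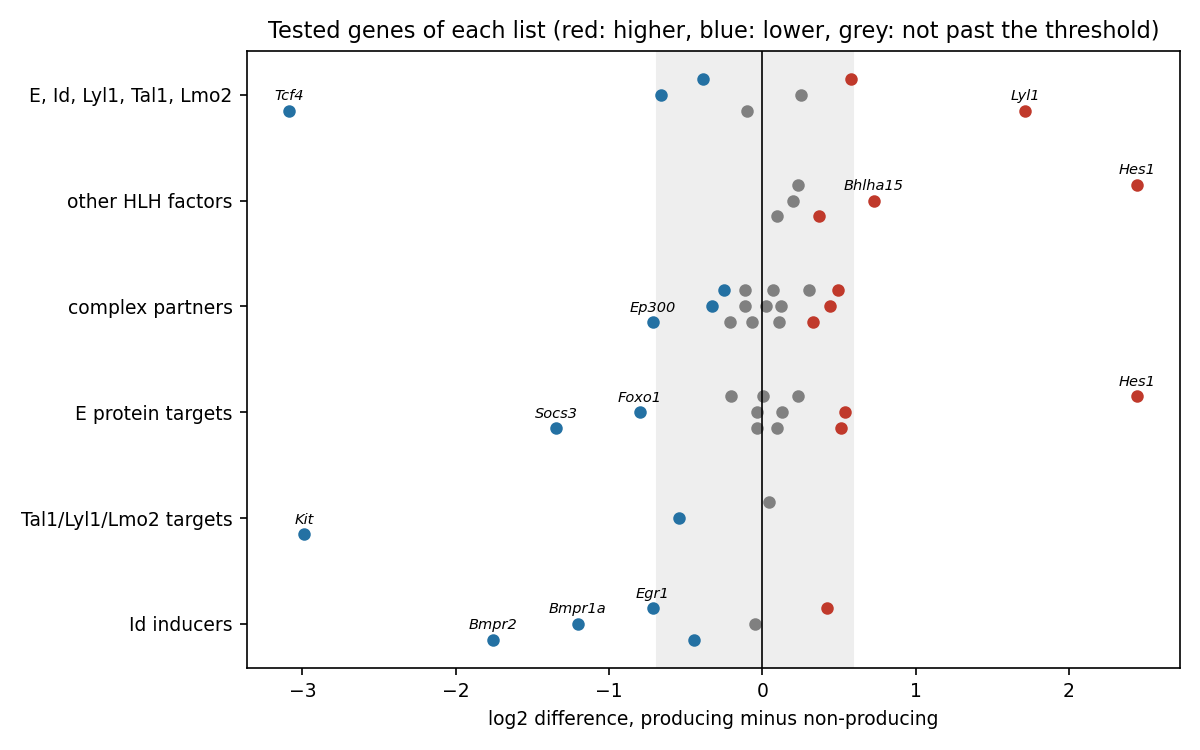
Log2 difference, producing minus non-producing, of every tested gene in each list, 1 point a gene. Grey shading spans the 5th to 95th percentile of all tested genes, -0.69 to 0.59, and the line is their median. Hes1 stands in 2 lists, and Tcf4, Kit, Bmpr2 and Socs3 lie furthest to the left.

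The genes most like Lyl1 and Tcf4 across the 6 arrays were found by the root mean square distance between log2 profiles centred on their own mean, among 9120 other tested genes with a gene name. Nearest to Lyl1 were Marcksl1, a MARCKS-like protein, at a distance of 0.06, the immunoproteasome subunit gene Psmb9 at 0.08 and the zinc finger gene Snai3 at 0.09. Psmb9 and Snai3, detected on all 6 arrays, differed by 1.60 and 1.66 in log2. Marcksl1 was not detected on any non-producing array and was at least 2.82-fold higher in S2. Nearest to Tcf4 were Slc7a11, the cystine-glutamate exchanger, at 0.11, Fam155a at 0.11 and the oxysterol hydroxylase gene Cyp7b1 at 0.12. None of these 3 was detected on a producing array, and they were at least 7.47-fold, 4.77-fold and 4.89-fold lower in S2. As for Lyl1 and Tcf4, such bounds hold only for the background correction used here. Without it the log2 differences were 0.95 for Marcksl1, -2.10 for Slc7a11, -2.03 for Fam155a and -1.82 for Cyp7b1, and Slc7a11 was at -2.55 with its probes averaged. With 6 arrays in 2 groups, such a distance mostly reflects the size of the group difference.

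Cell types in which these factors are well known were checked by marker lists. Of 7 erythroid and megakaryocyte markers with a probe, 3 were detected on any array and 0 on all 6, with summed normalized signal of 176 to 191 on producing and 183 to 191 on non-producing arrays. Gata1, Hba-a1, Pf4 and Gp1bb were detected on none. Of 6 B cell markers, 2 were detected on any array and 0 on all 6, with sums of 158 to 177 on producing and 158 to 166 on non-producing arrays, and Cd79b, Blnk, Pax5 and Cd22 were detected on none. Of 8 myeloid markers, 2 were detected on any array and 0 on all 6, with sums of 185 to 205 on producing and 212 to 218 on non-producing arrays. Lyz1, the lysozyme gene, was detected on 0 of 3 producing and 3 of 3 non-producing arrays and was at least 1.43-fold lower in S2. Without it the sums were 161 to 180 on producing and 164 to 169 on non-producing arrays. Csf1r, Itgam, Cd14, Mpo, Lyz2 and Fcgr1 were detected on none.

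Tcf4 also specifies plasmacytoid dendritic cells. Of 7 markers of these cells, 3 were detected on any array and 1, the broadly expressed Bst2, on all 6, while Siglech, Ly6d, Ccr9 and Flt3 were detected on none. Spib, a transcription factor gene of these cells, was detected on 0 of 3 producing and 3 of 3 non-producing arrays. It was at least 1.31-fold lower in S2, but averaged only 5.48 in log2 on non-producing arrays, close to the lowest detected signal. Irf8, the third, was detected on 3 of 3 producing and 2 of 3 non-producing arrays. Its difference was 0.16, not past the threshold. The sum was 1087 to 1127 on producing and 629 to 776 on non-producing arrays, and Bst2 alone averaged 944 on producing and 499.8 on non-producing arrays. Without Bst2 it was 159.5 to 164.1 on producing and 169 to 194 on non-producing arrays. Of 6 mast cell markers, Kit among them, 3 were detected on any array and 1 on all 6, with sums of 291 to 311 on producing and 493 to 566 on non-producing arrays. Kit averaged 35.4 on producing and 280.3 on non-producing arrays, and without it the sums were 250 to 280 on producing and 214 to 272 on non-producing arrays. Cpa3, a mast cell carboxypeptidase gene, was detected on all 6 arrays, at 7.35 in log2 on producing and 7.18 on non-producing arrays, not past the threshold. Fcer1a, the IgE receptor alpha chain gene, was detected on 2 of 3 producing and 3 of 3 non-producing arrays. Tpsb2, Mcpt4 and Ms4a2 were detected on none. The part of other cell types in the differences of Tcf4, Kit and Hhex was not tested.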

How the data were processed

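Total RNA of 6 mouse hybridoma samples was measured on Illumina bead arrays with 45281 probes. The authors deposited signal intensity averaged over beads, linear and not normalized per the file headers. Beside it stands a deposited detection score, a fraction that rises with signal, so that 1 minus the score served as detection p-value. The other deposited table holds intensity whose sorted values match the mean sorted signal within 0.1% for 99.989% of entries, so it was read as quantile normalized. The scanner software is not given in the sources used here.

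With limma 3.58.1 in R 4.3.3, neqc (negative controls inferred from detection, offset 16) gave background-corrected, quantile-normalized log2 values. A probe was tested if detected, at a detection p-value under 0.05, on at least 3 of 6 arrays. Groups were compared by lmFit and eBayes, two-sided, without covariates, with Benjamini-Hochberg adjustment over all 17445 tested probes and a threshold of 0.05. A gene was read from its brightest tested probe. Data were also simulated for this comparison over 17445 probes, of which 66 were changed by 2 on the log2 scale, 67 by 1 and 67 by 0.5. Of these changes 98.5%, 88.1% and 40.3% were called, so in the simulation the smaller ones were often not called. That is a far smaller share of changed probes than the 36.7% of genes called here. Since the adjustment is stricter when few probes change, these shares cannot be carried over to the real arrays. Gene symbols came from the platform annotation, with a single symbol for 34885 probes, several for 18 and none listed for 10378, and chromosomes from the GRCm38.p6 gene table. Promoter windows came from RefSeq.

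The genes and all lists were chosen with earlier results of these data known. Named genes were all 9 members, up to 4 genes past the threshold per list, every tested complex partner, and the 3 nearest profiles of 2 members. The alternatives covered background correction, normalization, the processed table, the filter, the probe of a gene, a replicate block, each array left out, chromosome medians and the spread model.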

Additional observations from a re-analysis of the deposited data

How the results depend on the processing

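Under 16 alternatives the count of genes past the threshold, 3448, stayed between 2644 and 3894, and between 2644 and 2976 with 1 array left out. The count among the 7 genes, 5, was 6 with arrays scaled to a common median or with a gene's probes averaged, 4 with detection required on all 6 arrays, where Lyl1 and Tcf4 could not be tested and Id3 passed, and 5 to 6 with 1 array left out. Median scaling of the arrays, replacing the quantile step, gave 473 higher and 3310 lower, 12.5% higher against 49.4%. With the replicate number as a block, 3019 genes and 5 of the 7 passed. Deviations of same-numbered arrays correlated at -0.164 to 0.088, with 0 of 3 pairs over 0.1. Over any pair across the groups the range was -0.202 to 0.263. With 3 arrays a group, such values cannot decide whether same-numbered arrays were handled together. The block moved Bhlhe40 (0.37, adjusted p = 0.06 by limma) and Hdac2 (-0.25, adjusted p = 0.0865 by limma) above the threshold.

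Signs turned for Id3 with chromosome medians removed (-0.022) and for the dim Id2 probe with median scaling (-0.064) or 1 array left out (-0.0090 to 0.15). Among genes not past the threshold they turned with median scaling for Ssbp3 (-0.16), Gata3 (-0.21), Sin3a (-0.16) and Sp1 (-0.24), with chromosome medians removed for Lmo4 (0.076) and Ssbp3 (-0.17), and with averaged probes for Sp1 (-0.20). With 1 array left out, Gata3 ran from -0.0073 to 0.13, Crebbp from -0.29 to 0.071 and Sp1 from -0.012 to 0.093. Causes were not tested. Values of Id3, the dim Id2 probe, Lyl1 in the non-producing line and Tcf4 in the producing line lie at or near background, which limits their precision.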
